A study of Mus musculus with 54 samples.

Results

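The 7 genes described here serve MHC class II antigen presentation in the mouse small intestine. They were chosen by name and not by their values, out of 48059 named entries in the mRNA table and 27998 genes in the single-cell matrices. H2-Aa and H2-Ab1 encode the alpha and beta chain of the class II molecule I-A. H2-Eb1 encodes the beta chain of a second class II molecule, I-E. Cd74 encodes the invariant chain, H2-DMa and H2-DMb1 encode the chains of the peptide exchange factor DM, and Ciita encodes the class II transactivator. All 7 had values above 0 in each of the 16 mRNA libraries and in each of the 4 single-cell libraries.

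Class II molecules present peptides from engulfed proteins to CD4+ T cells. The invariant chain occupies the groove of a newly made class II molecule and guides it to endosomes, where DM removes the last fragment of the invariant chain and lets a peptide bind. Ciita does not bind DNA itself. It is recruited by the factors RFX, CREB and NF-Y to a shared module in the promoters of these genes, and interferon gamma is the best known inducer of Ciita in cells other than professional antigen presenting cells. Intestinal epithelial cells are among the cells known to carry class II. In C57BL/6 mice the alpha chain gene of I-E is defective, so H2-Eb1 is transcribed without its partner.

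The series surrounds miR-375, a microRNA, in cells of the mouse small intestine, and 2 of its assays measure messenger RNA. Bulk mRNA was measured in Sox9-EGFP Low cells, crypt cells sorted for a low level of a fluorescent reporter of Sox9, a gate known to hold many stem cells. They were made from C57BL/6J mice in 4 groups of 4 libraries: germ-free, conventionalized, chow diet and high fat diet. Mice raised germ-free lack a microbiota, and conventionalized is the usual name for germ-free mice that were given a microbiota. The sources used here give no diet composition, age or length of treatment. Single-cell libraries (10x Genomics Chromium) came from separated intestinal cells of miR-375 knockout (KO) mice and wild-type (WT) mice, all aged 12 months, strain label C57BL6/2J, with 1 library per genotype in each of 2 sets. Whether the 2 sets are separate litters or days, and how many mice stand behind a library, is likewise not given. The deletion itself was not checked here, because these libraries count messenger RNA.

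In the GRCm38 annotation (GENCODE vM21) 5 of the genes lie in the class II region of chromosome 17. H2-DMa spans chr17:34119541-34139101, H2-DMb1 chr17:34153072-34160230, H2-Ab1 chr17:34257689-34269419 and H2-Eb1 chr17:34305867-34316674, all on the plus strand. H2-Aa lies between the last pair on the minus strand, at chr17:34282744-34287823. Ciita lies at chr16:10480059-10528418 on the plus strand. A promoter was found in RefSeq's table for 4 of the 7 genes. The 120 bases upstream of the RefSeq start are shown for H2-Aa and H2-Eb1 (GRCm38.p6), because their single-cell levels moved in opposite directions in the knockout library of set 1. Capitals mark CCAAT on either strand (the box NF-Y binds), TGACG on either strand (the core of a CREB element), and CTGATTGG, a longer string around the reversed CCAAT that was searched for after the sequences had been read.
H2-Aa, chr17:34287824-34287943, minus strand: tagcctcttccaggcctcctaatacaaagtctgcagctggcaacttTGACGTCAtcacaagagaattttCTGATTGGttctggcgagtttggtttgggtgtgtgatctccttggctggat
H2-Eb1, chr17:34305747-34305866, plus strand: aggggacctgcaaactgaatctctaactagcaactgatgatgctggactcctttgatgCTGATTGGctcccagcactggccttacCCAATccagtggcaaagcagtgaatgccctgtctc
Both windows hold CTGATTGG, which contains ATTGG, the reverse of CCAAT. The string CCAAT begins 48 bases upstream of the start in H2-Aa, and 59 and 35 bases upstream in H2-Eb1. TGACG occurs on both strands of H2-Aa, 74 and 71 bases upstream and overlapping as TGACGTCA, and these letters are not in the H2-Eb1 window. Among 32817 promoter windows of the same length, 21.3% held CCAAT, 11.6% held TGACG and 2.83% held CTGATTGG. The H2-DMb1 window held CCAAT at 61 bases, and neither of the H2-DMa windows held any of these strings. A match is a description of the letters and not of a bound factor.

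The mRNA table holds the authors' normalized counts, which sum to between 10688863 and 19124357 per library. Epcam, an epithelial surface protein, stood between 14073 and 37732 normalized counts in the 16 libraries, and Ptprc, which encodes the leukocyte protein CD45, between 22.4 and 328. In a small RNA column name that shares its animal number, the chow library numbered 3 is named for a high fat diet. The labels were followed, and results are also given without it.

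High fat diet was compared with chow first. All 7 genes were lower in every high fat diet library than in every chow library, and 5 of them, H2-Aa, H2-Ab1, H2-Eb1, Cd74 and H2-DMb1, fell at the threshold used (limma, adjusted p under 0.05). The size of the difference ran from 5.65-fold for H2-DMa to 48.8-fold for H2-Aa after 1 was added to each value and logs were taken, a scale on which changes of low genes come out too small. Over all 16421 genes tested, 0.822% were called in either direction and 0.615% were called lower, and 7.36% had every high fat diet library below every chow library. An unadjusted p under 0.05 was found for 7 of the 7 genes, beside 26.7% of all genes tested.

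H2-Aa stood at 3826, 12664, 900.0 and 10244 normalized counts in chow libraries 1 to 4, and at 40.9, 83.1, 152 and 145 in high fat diet libraries 1 to 4. The lowest chow library thus stayed above the highest high fat diet library, and the difference was -5.61 on the log2(value + 1) scale (SE 0.76, limma adjusted p = 0.0371). H2-Ab1, the other chain of I-A, stood at 12163, 33280, 2953 and 31208 in chow and at 349, 539, 939 and 908 on the high fat diet. Its difference was -4.45 (SE 0.69, limma adjusted p = 0.0371), or 21.9-fold. Both chains of I-A were therefore low in the same 4 libraries, and among the chow libraries both were lowest in number 3 and highest in number 2.

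H2-Eb1 stood at 3579, 9719.6, 948 and 7799 in chow and at 145, 192, 343 and 278 on the high fat diet. Its difference was -4.13 (SE 0.63, limma adjusted p = 0.0371), or 17.6-fold. Cd74, the invariant chain gene, which lies on chromosome 18, stood at 31591, 67079.5, 7127 and 53308 in chow against 806, 1525, 2601 and 2582. Its difference was -4.14 (SE 0.65, limma adjusted p = 0.0371), or 17.7-fold, about that of H2-Eb1. The chow libraries spread widely for both genes, and their lowest value stayed above the highest high fat diet value.

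The DM chains differed from each other in size of change. H2-DMb1 stood at 914, 2192, 252 and 2369.7 in chow against 37.4, 77.9, 96.3 and 94.4, a difference of -3.85 (SE 0.64, limma adjusted p = 0.0389). H2-DMa stood at 1545, 3499, 399 and 2679.6 against 279, 285, 289.5 and 244. The groups did not overlap, yet chow library 3 was only slightly above the high fat diet range, and the difference of -2.50 (SE 0.55) had a limma adjusted p of 0.0635. Ciita, the transactivator, stood at 379, 1027, 105 and 794 in chow against 40.1, 57.4, 60.7 and 87.5. Its difference was -2.82 (SE 0.61, limma adjusted p = 0.0623), or 7.08-fold, so neither Ciita nor H2-DMa passed. Whether the 7 genes differ from each other in their response was not tested.

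**Figure D1:**
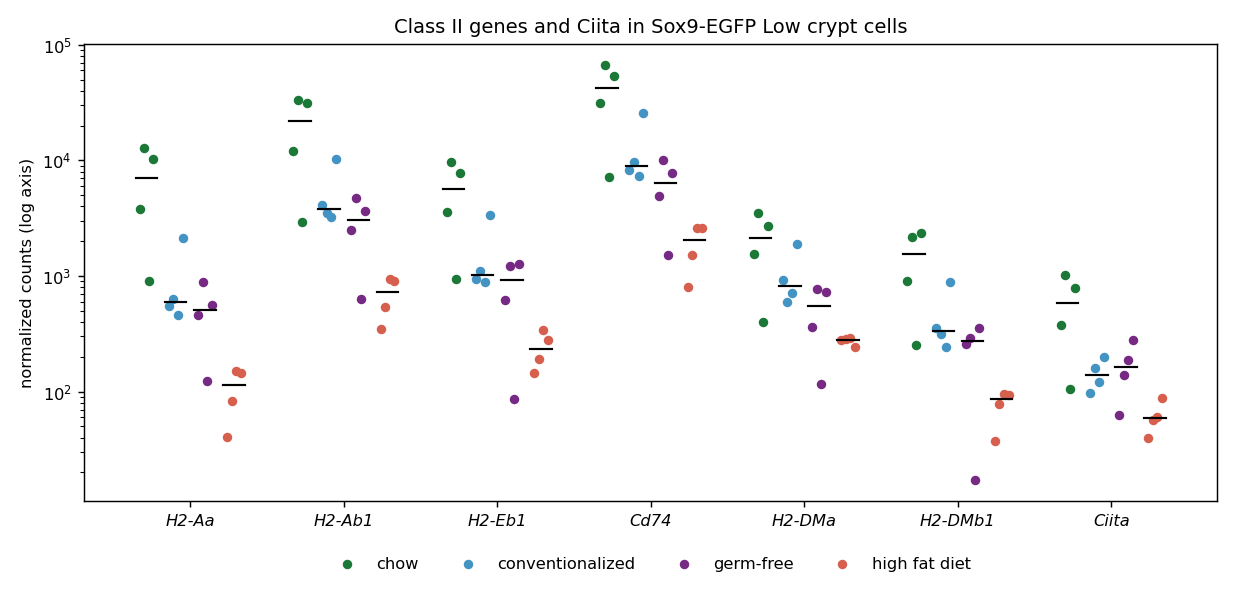
Normalized counts (log axis) of the 7 genes in each library of Sox9-EGFP Low cells, coloured by group, with a bar at the median of the 4 libraries. For all 7 genes the 4 high fat diet points lie below the 4 chow points, and the chow points of a gene spread over about an order of magnitude, with H2-Aa between 900.0 and 12664.

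The median difference of the 7 genes was -4.13, beside 0.05 over all genes tested. The direction was lower for every member in all 16 alternative fits. The calls were less steady: leaving out any 1 high fat diet library, chow library 1 or chow library 4 left 0 genes called in the whole table, with adjusted p between 0.0575 and 0.102 for the 5 members called with all libraries. With all 4 groups in 1 fit, which removes no library, 4 members were called and H2-DMb1 was not (limma adjusted p = 0.0521). Without chow library 2, without chow library 3, or without both libraries numbered 3, all 7 passed.

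In bulk RNA, fewer cells of a type and less RNA per cell cannot be told apart, so markers of other cells are given beside this result. The summed level of 4 leukocyte markers was 35.3 to 326 in chow and 44.6 to 65.9 on the high fat diet, and that of 16 myeloid or dendritic markers 84.2 to 287 and 111 to 148. The B lymphocyte or plasma list of 11 genes summed to 5557 to 6391 in chow and 4931 to 6804 on the high fat diet. Cd79a, a part of the B cell receptor, stood between 3.72 and 6.50 in chow, and Itgax, which encodes the dendritic cell protein CD11c, between 0 and 0.330. The chow library with the most Ptprc (233) was number 3, which had the lowest level of each of the 7 genes in its group. The T lymphocyte list of 13 genes summed to 68.1 to 179 in chow and to 11.1 to 19.7 on the high fat diet, with Trbc2 and Nkg7 at 0 in all 4 high fat diet libraries. Of 11 tuft cell markers, 11 were lower on the high fat diet and 6 were called. All 15 enteroendocrine markers were lower and 0 were called. The part of these cells in the class II result was not tested.

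The pathway around the 7 genes was read from lists chosen with earlier results of these data known. Among 12 tested genes that process class II or bind its promoters, 5 were lower on the high fat diet and 0 were called. The 3 with the highest levels were Ifi30, a reductase of endosomes, at 3319.8 against 2429 normalized counts, Nfyc, a subunit of NF-Y, at 1237 against 1118, and Ctsl, a protease, at 683 against 1654, all without passing. The median log2 difference of this list was 0.14. Of 18 interferon gamma genes, 14 were lower and 2 fell: Irf9, a transcription factor of interferon signalling, from 598 ± 98.6 in chow to 328 ± 12.8 (SD, n = 4; limma adjusted p = 0.0389), and Gbp2, an interferon-induced GTPase, from 53.9 ± 36.7 to 4.58 ± 0.932 (SD, n = 4; limma adjusted p = 0.0371). Ifng itself was listed at 0 in all 16 libraries.
Of 15 class I presentation genes, 10 were lower and H2-D1, a class I heavy chain, fell from 26291 to 10918 (log2 difference -1.23, limma adjusted p = 0.0389). The 4 tested costimulation genes were all lower and 0 were called.

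Conventionalized mice were compared with chow mice next, 2 groups that both carry microbes but differ in how they were raised. Library names begin with BC in the chow and high fat diet groups and with CD in the conventionalized group. Any difference in how these libraries were made cannot be told apart from rearing in this comparison. All 7 genes had lower means in the conventionalized group and 0 were called, beside 0.0948% of 17941 genes tested. H2-Aa stood at 556, 634, 462 and 2120.1 normalized counts in conventionalized libraries 1 to 4, and its difference from chow was -2.58 (SE 0.74, limma adjusted p = 0.238). H2-Ab1 stood at 4081.5, 3535, 3239 and 10297 (difference -1.57, limma adjusted p = 0.421). Cd74 stood at 8216, 9622, 7323 and 25745.5 (difference -1.44, limma adjusted p = 0.435). Chow library 3 lay inside or close to the conventionalized range, so the groups overlapped for every one of the 7 genes, while 4.38% of all genes tested had every conventionalized library below every chow library. An unadjusted p under 0.05 was found for 6 of the 7 genes, all but H2-DMa, beside 11.2% of all genes tested.

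H2-Eb1 stood at 941, 1100.0, 893 and 3356 in the conventionalized libraries (difference from chow -1.59, limma adjusted p = 0.397). Ciita stood at 97.4, 159, 121 and 201 (difference -1.60, limma adjusted p = 0.350). H2-DMa and H2-DMb1 differed by -0.74 and -1.41, with limma adjusted p of 0.638 and 0.439. In 5 of the 7 genes conventionalized library 4 stood far above the other libraries of its group. None of the 12 processing genes, 18 interferon gamma genes, 15 class I genes and 5 costimulation genes tested was called. The log2 difference was negative for 13 of the 15 class I genes. This comparison and the diet comparison share the chow libraries. Tuft cell markers (11 of 11) and enteroendocrine markers (15 of 15) were lower on the log2 scale here too, with 0 called. Their part in the class II values was not tested.

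Germ-free mice were then compared with conventionalized mice, that is, crypt cells without and with a microbiota. The means of 6 of the 7 genes were lower in germ-free mice, and 0 of 7 were called, beside 2.24% of 20214 genes tested (0.292% called lower). H2-Aa stood at 456, 891, 123 and 558 normalized counts in germ-free libraries 1 to 4 (log2 difference -0.91, SE 0.58, limma adjusted p = 0.371). H2-Ab1 stood at 2509.8, 4731, 630.3 and 3623 (difference -1.04, SE 0.56, limma adjusted p = 0.305). Cd74 stood at 4912, 10030.2, 1528 and 7790.0 (difference -1.17, SE 0.56, limma adjusted p = 0.262). Germ-free library 3 was the lowest for each of these, and the ranges of the groups overlapped for all 7 genes, while 6.21% of all genes tested had every germ-free library below every conventionalized library. An unadjusted p under 0.05 was found for 1 of the 7 genes, H2-DMa, beside 20.1% of all genes tested.

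H2-Eb1 stood at 621, 1215, 86.1 and 1266 in germ-free libraries (difference -1.30, limma adjusted p = 0.317). H2-DMa (-1.24, limma adjusted p = 0.235) and H2-DMb1 (-1.40, limma adjusted p = 0.324) had differences of like size. Ciita did not go with them: it stood at 62.7, 139, 189 and 282 in germ-free and at 97.4 to 201 in conventionalized libraries, a difference of 0.08 (SE 0.46, limma adjusted p = 0.929). Its second highest germ-free value, 189, came from library 3, where the class II genes were lowest. In this comparison 1 class I gene fell, Tap1, a subunit of the peptide transporter, from 729.6 in conventionalized to 285 in germ-free libraries (log2 difference -1.29, limma adjusted p = 0.0471). Of 18 interferon gamma genes 14 had negative log2 differences and 0 were called. Of 12 processing genes 9 had negative log2 differences and 0 were called. Cycling markers (13 of 13, 4 called) were lower and enteroendocrine markers (15 of 15, 5 called) and stromal markers (7 of 7, 1 called) higher in germ-free mice, and their part in these values was not tested.

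**Figure D2:**
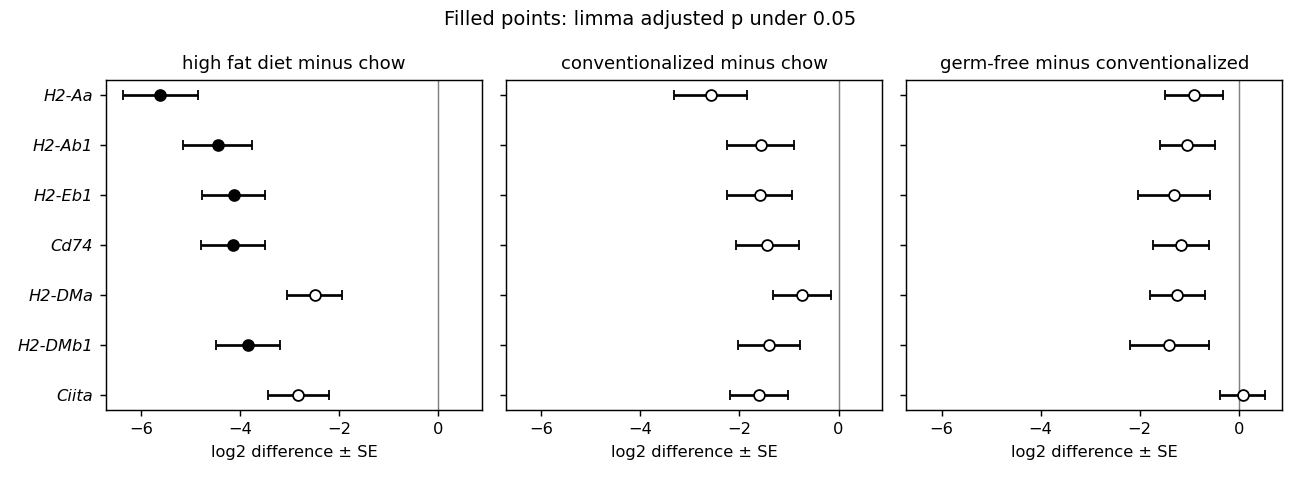
Log2 differences of the 7 genes in 3 comparisons, each with its standard error, from limma fits of 4 against 4 libraries. Filled points have an adjusted p under 0.05: these are 5 of the 7 genes in the diet panel, from -5.61 for H2-Aa to -3.85 for H2-DMb1, and 0 in the others.

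Ordered by group mean, levels of the 6 class II genes other than Ciita ran from chow through conventionalized and germ-free to high fat diet mice. Neighbouring groups in this order overlapped for each of them, while the high fat diet range lay below both the chow range and the conventionalized range for all 7 genes. Of 17641 genes with a mean of at least 10 in those groups, 3.58% had every high fat diet library below every conventionalized library, and that pair of groups was not compared by a test. The mean of Ciita was 576 in chow, 168 in germ-free, 145 in conventionalized and 61.4 in high fat diet libraries. Germ-free and high fat diet libraries were not compared by a test either.

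The 7 genes varied together over the 16 libraries. The Pearson correlation of a gene with the mean of the other 6 on the log2 scale was 0.98 for H2-Aa, 0.99 for H2-Ab1, H2-Eb1 and Cd74, 0.95 for H2-DMa, 0.96 for H2-DMb1 and 0.83 for Ciita. These are descriptions over libraries that share their group differences. Among 18675 genes, the 10 that were no members and followed the mean of the 7 genes closest were H2-Q7 (r = 0.92), Gm20496 (0.91), Igtp (0.89), Tnf (0.88), Psmb8 (0.87), Cybc1 (0.87), Tgtp1 (0.86), H2-Q6 (0.85), Ifi47 (0.84) and Irgm2 (0.82). H2-Q7, a class I-like gene of the Qa region, had group means of 1633 in chow, 312 in conventionalized, 129 in germ-free and 92.2 in high fat diet libraries. Igtp, an interferon-induced GTPase, had means of 680.5, 278, 162 and 80.6 in the same order. Psmb8, a subunit of the immunoproteasome, had means of 5341, 2911, 1658 and 1538.

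In the single-cell libraries 1185 and 1229 cells were kept in WT and KO of set 1 and 3156 and 3149 in WT and KO of set 2. The sets differed in quality before filtering. The median mitochondrial share of all barcodes was 5.90% and 5.62% in WT and KO of set 1, and 40.9% and 37.9% in set 2. In set 1 1197 of 1209 and 1241 of 1251 barcodes passed the filters, and in set 2 3363 of 7711 and 3355 of 7665. Cells with at least 1 Epcam UMI and no Ptprc UMI (Epcam-positive) numbered 1122 in WT and 1160 in KO of set 1, and 1627 and 2226 in set 2. Cells with at least 1 Ptprc UMI and no Epcam UMI (Ptprc-positive) numbered 12, 10, 981 and 509. A UMI is a tag that marks 1 captured RNA molecule. Cell barcodes were shared by 1 pair of cells between WT and KO of set 1 and by 12 barcodes between WT and KO of set 2, of which 3 passed the filters.

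The KO library of set 1 stood apart for H2-Eb1. In Epcam-positive cells it held 64.4 H2-Eb1 UMIs per 100 H2-Ab1 UMIs, against 9.52 in WT set 1, 8.90 in WT set 2 and 7.37 in KO set 2. The same was seen in its Ptprc-positive cells (68.6, against 7.07, 5.75 and 4.91) and in cells with UMIs of both gating genes (75.6, against 8.52, 7.45 and 2.93). The cause was not tested, and values of H2-Eb1 are given below with and without this library. H2-Ea-ps, the defective alpha chain gene of I-E, was counted at 0 UMIs in all 4 libraries. Whether the single-cell matrices hold this gene was not checked, and a gene absent from them would also count as 0. In the bulk libraries H2-Ea-ps stood at 0.764 to 4.07 normalized counts in chow and 0 to 2.08 on the high fat diet. It stood at 0 to 10.7 in conventionalized and 5.32 to 20.3 in germ-free libraries.

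**Figure D3:**
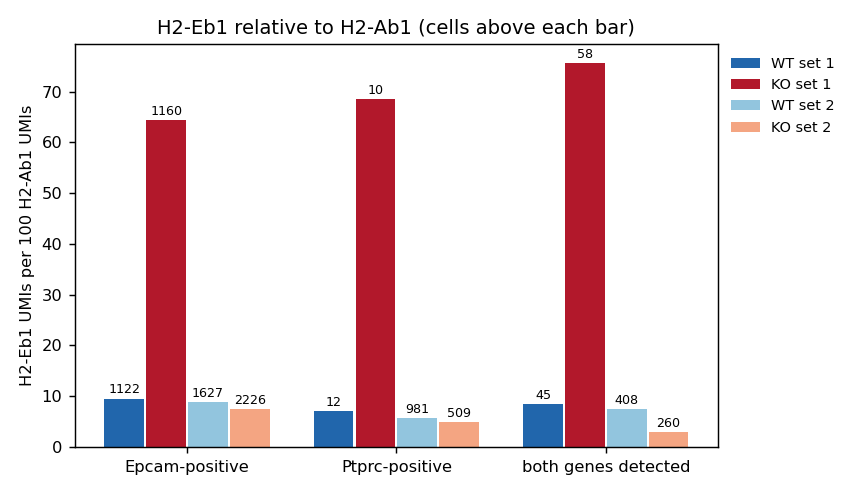
H2-Eb1 UMIs per 100 H2-Ab1 UMIs in Epcam-positive cells, Ptprc-positive cells and cells with UMIs of both genes, for the 4 single-cell libraries, with the number of cells above each bar. The bar of KO set 1 stands at 64.4, 68.6 and 75.6 in the 3 gates and every other bar is below 10.

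In Epcam-positive cells 6 of the 7 genes had a lower level in KO than in WT in both sets, and 0 of 7 were called (edgeR, 2 against 2 libraries, 0% of 12974 genes tested called). Over all genes tested 28.3% were lower in KO in both sets. For 5 of the 7 genes both KO libraries lay below both WT libraries, as they did for 7.26% of all genes tested. Levels are given as CPM, the usual scaling of a gene's UMIs by the total UMIs of the summed cells.

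H2-Aa stood at 461 CPM in WT set 1 and 114 in KO set 1, and at 264 in WT set 2 and 138 in KO set 2. WT was thus 4.05 times KO in set 1 and 1.92 times in set 2, and the edgeR log2 difference of KO from WT was -1.55 (SE 0.43, unadjusted p = 0.0164, edgeR adjusted p = 0.999994). H2-Ab1 stood at 353 and 169 in set 1 and at 285 and 214 in set 2 (log2 difference -0.73, SE 0.31). H2-Aa had 131 and 92.6 UMIs per 100 H2-Ab1 UMIs in the WT libraries and 67.3 and 64.4 in the KO libraries.

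Cd74 stood at 1199 and 683 CPM in WT and KO of set 1 and at 1213 and 746 in set 2, ratios of 1.75 and 1.63 (log2 difference -0.73, SE 0.30). H2-DMa stood at 71.3 and 40.7 in set 1 and at 83.2 and 60.1 in set 2 (-0.59, SE 0.22). H2-DMb1 stood at 48.7 and 26.1 in set 1 and at 51.0 and 37.2 in set 2 (-0.63, SE 0.22). The invariant chain and both DM chains were lower in KO in each set by more than the exact Poisson counting interval of each library.

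Ciita stood at 4.2 and 2.27 CPM in set 1 and at 6.85 and 4.84 in set 2 (log2 difference -0.58, SE 0.40). H2-Eb1 went opposite ways: 33.6 in WT and 109 in KO of set 1, and 25.4 in WT and 15.8 in KO of set 2. Its log2 difference was 1.14 (SE 0.93) with all libraries and -0.96 without KO set 1. The edgeR adjusted p was 0.999994 for each of the 7 genes, and counting intervals cover counting error only. An unadjusted p under 0.05 was found for 3 of the 7 genes, H2-Aa, H2-DMa and H2-DMb1, and for 103 genes (0.794%) of the whole table, and DESeq2 called 9 genes, none of them a member. The median log2 difference of the 7 genes was -0.63, beside 0.01 over all genes tested. The set was not part of this fit. With the set as a block the differences were -1.44 for H2-Aa, -0.70 for H2-Ab1, -0.72 for Cd74 and -0.60 for H2-DMa. They were -0.63 for H2-DMb1, -0.61 for Ciita and 0.55 for H2-Eb1, and 0 genes were called.

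**Figure D4:**
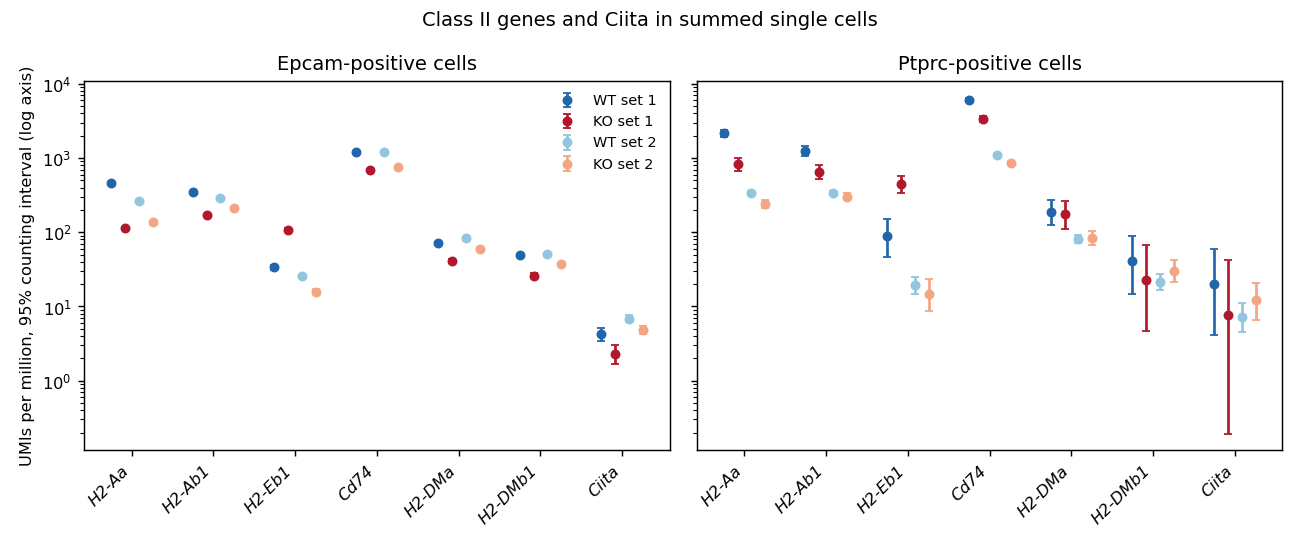
CPM (log axis) of the 7 genes in the summed Epcam-positive and Ptprc-positive cells of the 4 libraries, with exact 95% Poisson intervals that cover counting error only. In the Epcam-positive panel each KO point lies below the WT point of its set except for H2-Eb1 in set 1 (109 against 33.6).

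Epithelial cells were also split into clusters named by their markers, and 6 classes held at least 20 cells in every library. Across the 12 pairs of class and set, H2-Aa, H2-Ab1 and H2-DMb1 were lower in KO in 12, Cd74 and H2-DMa in 11, Ciita in 10 and H2-Eb1 in 6. The counting intervals were apart in 11 of those for H2-Aa and H2-Ab1, 10 for Cd74, 9 for both DM chains, 1 for Ciita and 4 for H2-Eb1. With 1 library per genotype in a set, no test was made within a class. The same counts were not made over all genes, so how common they are is not known. Counting intervals cover counting error only.

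In stem-like cells H2-Aa stood at 704 CPM in WT and 75.2 in KO of set 1, and at 328 and 126 in set 2. In goblet-like cells, which secrete mucus, it stood at 234 and 29.2 in set 1 and at 128 and 55.3 in set 2. In enterocyte-like cells, the absorptive cells, it stood at 852 and 333 in set 1 and at 368 and 231 in set 2. The ratio of WT to KO was 9.37 and 2.60 in stem-like cells, 8.01 and 2.31 in goblet-like cells, and 2.56 and 1.59 in enterocyte-like cells. In each of these classes the ratio was larger in set 1. The enterocyte-like class pools clusters that the genotypes filled differently. Within its clusters with at least 20 cells of both genotypes, WT was 2.29 to 8.36 times KO for H2-Aa in 4 clusters of set 1 and 1.35 to 2.34 times in 4 clusters of set 2. In set 1 a further cluster held 46 KO cells, at 1315 CPM of H2-Aa, and too few WT cells for a level. In set 2 the cluster with the ratio of 2.34 held 104 WT and 425 KO cells.

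The level itself differed among classes. Cd74 in WT was highest in enterocyte-like cells (2243 CPM in set 1 and 1710.4 in set 2) and next in stem-like cells (1812 and 1548), followed by cycling-like cells (1179 and 1068) and goblet-like cells (566 and 506). Paneth-like cells, which secrete antimicrobial peptides, had 78.5 in WT set 1 and 265 in WT set 2. Enteroendocrine-like cells, which make gut hormones, had 627 and 171 in WT against 299.6 and 226 in KO, so the direction of Cd74 there differed between the sets. H2-Aa in Paneth-like cells stood at 38.6 and 16.4 in WT and KO of set 1 and at 74.6 and 12.3 in set 2. The median depth of Paneth-like cells was 37804.5 to 72283.5 UMIs, and CPM is a share of that total.

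**Figure D5:**
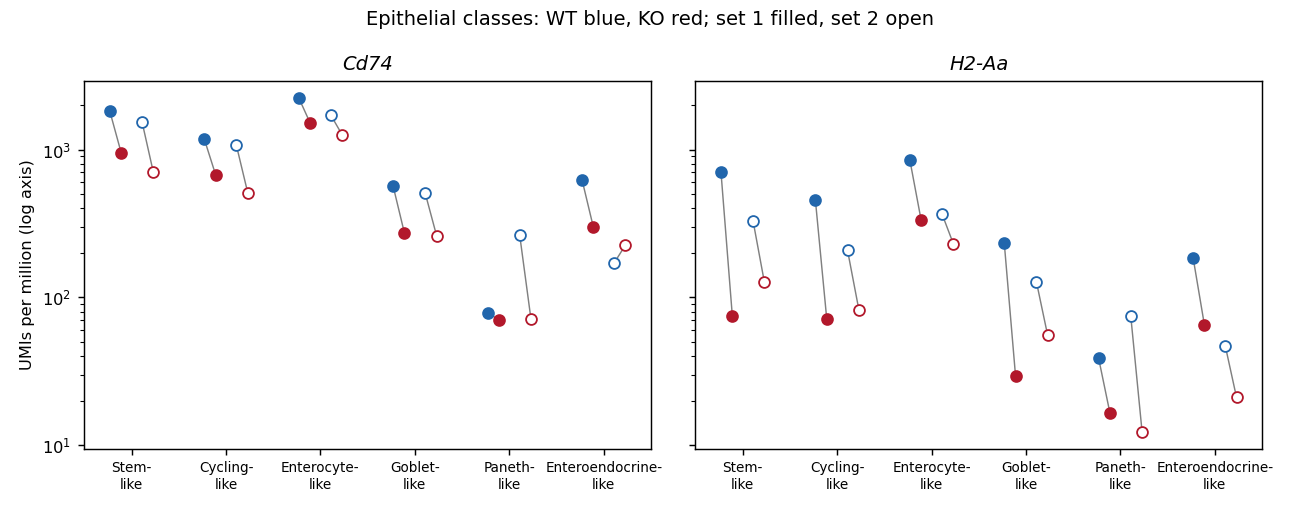
CPM (log axis) of Cd74 and H2-Aa in 6 epithelial classes, WT in blue and KO in red, set 1 filled and set 2 open, with a line joining the libraries of a set. H2-Aa is lower in KO in all 12 pairs, and Cd74 in all but enteroendocrine-like cells of set 2 (171 in WT and 226 in KO).

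The share of Epcam-positive cells with a Cd74 UMI was compared after thinning each cell to 2000 UMIs, since depth differed between libraries. It was 76.9% in WT set 1 (863 of 1122 cells, exact binomial 95% interval 74.3% to 79.4%) and 56.1% in KO set 1 (53.2% to 59.0%). In set 2 it was 70.5% in WT (68.1% to 72.7%) and 50.6% in KO (48.5% to 52.7%), after leaving out 56 and 55 cells with fewer UMIs. These intervals cover the sampling of cells within a library and not the spread between mice or libraries. No test was made of the shares. Not thinned, the shares were 96.2% in WT and 91.1% in KO of set 1 and 89.6% and 76.5% in set 2, with median depths of 16352, 15876, 23803 and 16494.5 UMIs in the same order. T cells, taken as cells with little class II of their own, had a Cd74 UMI in 9.60% of 708 thinned cells of WT set 2 and in 13.2% of 243 of KO set 2, at unthinned median depths of 2847 and 2079 UMIs. The epithelial shares of set 2 stood above this background. Set 1 held 5 and 3 T cells, too few to measure a background there.

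The share with an H2-Aa UMI was 56.0% in WT and 17.2% in KO of set 1 and 35.6% and 19.2% in set 2, thinned. That with an H2-Ab1 UMI was 44.4% and 24.1% in set 1 and 38.6% and 30.4% in set 2. For Ciita the share was at most 1.59% in any library, so at 2000 UMIs per cell it was detected in few cells. The median of the summed UMIs of the 7 genes per thinned cell was 4 in WT and 1 in KO of set 1, and 3 in WT and 1 in KO of set 2.

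Among genes around class II in Epcam-positive cells, 12 of 17 tested interferon gamma genes and 13 of 15 class I genes were lower in KO in both sets, and 0 of either list were called. The interferon gamma genes with the highest levels were Ifngr1 and Ifngr2, the receptor chains, and Irf8, a transcription factor. Ifngr1 stood at 79.7 and 82.7 CPM in WT and KO of set 1 and at 106 and 94.4 in set 2, and Ifngr2 at 76.1 and 73.3 and at 94.7 and 91.4. Irf8 stood at 61.2 and 51.0 CPM in WT and KO of set 1 and at 119 and 91.3 in set 2. H2-D1 stood at 729 and 207 in set 1 and at 1109.8 and 753 in set 2, and B2m, the light chain of class I, at 1068 and 768 and at 533 and 428. Calr, a chaperone and the next of that list by level, stood at 472 and 494 in set 1 and at 807 and 671 in set 2. Of 13 processing genes 5 were lower in KO in both sets. Ifi30, the highest of them, stood at 137 and 119.7 in set 1 and at 227 and 222 in set 2. Ctss, a protease, stood at 46.9 and 32.2 in set 1 and at 52.4 and 41.0 in set 2, and Rfxap, a subunit of RFX, at 22.8 and 29.7 and at 29.1 and 24.0. The median log2 difference was -0.58 for the interferon gamma list, -0.42 for class I and 0.06 for the processing list.

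In the Epcam-positive cells the sum of 4 leukocyte markers was 15.5 CPM in WT and 20.8 in KO of set 1 and 13.1 and 8.96 in set 2, with Ptprc at 0 by the gate. Myeloid or dendritic markers summed to between 17.3 and 31.9 CPM and T lymphocyte markers to between 147 and 211. Leaving out every cell with a UMI of a leukocyte gate gene gave log2 differences of -1.53 for H2-Aa, -0.71 for H2-Ab1, -0.73 for Cd74 and -0.66 for Ciita. With enterocyte-like cells alone they were -1.14, -0.50, -0.52 and -0.56 in the same order, with -0.44 for H2-DMa, -0.38 for H2-DMb1 and 1.77 for H2-Eb1. In both fits 0 members were called, and the part of leukocytes in these differences was not tested.

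Ptprc-positive cells hold the professional antigen presenting cells of the tissue, but set 1 gave only 12 and 10 of them. Of 6848 genes tested 0% were called, including 0 of the 6 members tested, and an unadjusted p under 0.05 was found for 6 genes (0.0876%), none of them a member (DESeq2 called 0 genes). The level was lower in KO in both sets for 3 members, H2-Aa, H2-Ab1 and Cd74, beside 26.9% of all genes tested. Both KO libraries lay below both WT libraries for 0 members, beside 9.74% of all genes tested. Cd74 stood at 6069 and 3350.3 CPM in WT and KO of set 1 and at 1091 and 855 in set 2 (log2 difference -0.75, SE 1.02, edgeR adjusted p = 0.999982). H2-Aa stood at 2149 and 824 in set 1 and at 338 and 239 in set 2 (-1.21, SE 1.03), and H2-Ab1 at 1244 and 656 in set 1 and at 334 and 300.4 in set 2 (-0.70, SE 0.83). Without the 12 cells of WT set 1 these differences turned to 0.99, 0.68 and 0.55. That fit sets KO of both sets against WT of set 2 alone, and levels were higher in set 1 than in set 2. Within set 2 all 3 genes were lower in KO, with overlapping counting intervals for H2-Ab1.

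H2-DMa (189 and 176 CPM in set 1, 81.0 and 84.2 in set 2) and H2-DMb1 (40.6 and 22.9, 21.6 and 30.4) differed by -0.02 and -0.01. H2-Eb1 stood at 87.9 and 450.3 in set 1 and at 19.2 and 14.8 in set 2 (2.30, SE 1.5), and without KO set 1 the difference was -1.63. Ciita had 3, 1, 21 and 14 UMIs and was not tested. Class II levels differed between the cells of this gate: Cd74 stood at 15279 and 14451 CPM in cells with B cell genes of WT and KO set 2 (70 and 19 cells) and at 46.4 and 73.0 in T cells (819 and 410 cells). Within B cells and within T cells of set 2, Cd74 in KO was thus at 14451 against 15279 and at 73.0 against 46.4 CPM. The makeup of the gate was not part of the test.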

How the data were processed

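For bulk mRNA the authors deposited normalized counts (a signal, since the values are no longer whole reads). The sources used here do not say how they were scaled. Kits were SMARTer Ultra Low Input with Nextera XT, as the protocols in the labels state. The deposited single-cell matrices hold UMI counts, and the set 2 headers name software version 3.0.1. The submitters' processing notes name mm10, STAR, Salmon, DESeq2 and Cell Ranger without roles. Unnamed entries (381 of 48440) of the bulk values held 0.0338% to 0.0804% of a library and were left out.

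Log2(value + 1) was fitted with limma 3.58.1 in R 4.3.3 (eBayes with a trend), 2 groups per fit, for genes with a mean of at least 10. Cells were kept with at least 500 genes, 1000 UMIs and under 25% mitochondrial UMIs, and 0.8% per 1000 barcodes were removed by Scrublet rank. UMI counts were summed per library and tested with edgeR 4.0.16 (TMM, filterByExpr, quasi-likelihood), and DESeq2 1.42.0 was an alternative. Calls are two-sided Benjamini-Hochberg adjusted p under 0.05 over all genes tested. P-values measure the spread between these libraries, which may be technical. Clusters were made per set with scanpy 1.11.5 (2000 variable genes, 30 components, 15 neighbours, Leiden resolution 1). Each took the class with the most markers among its 10 most raised genes, then the largest share of markers raised. At least 3 markers of that class had to be 2-fold above the median cluster. By this rule a set 1 cluster of 28 cells with Neurog3 and Insm1 among its top genes was named goblet-like. Sequences are from RefSeq. Tested on simulated data with 200 changed genes, the diet fit of 16421 genes recovered 96.5% at a log2 change of 3. The simulation drew genes independently and changed only genes with higher levels. It therefore does not describe low genes or genes that vary together.

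Named are the 7 genes, list genes that were called or, where a list without calls is described by gene, its 3 highest, and the 10 genes most correlated with the members. Psmb8, Igtp and Tap1 of the single cells were chosen after their values were seen. The members and lists were chosen with earlier results of these data known. The same-numbered mRNA libraries did not deviate together in every pair, so numbers were not used to pair them.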

Additional observations from a re-analysis of the deposited data

Results flagged for a closer look

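Of 28 groups of 4 values examined (7 genes in 4 groups), 5 were flagged. In each of these conventionalized library 4 stood apart from the other 3 of its group. Chance gives about 1 in 20 for 1 group, but the 7 genes varied together. The 5 flags are therefore not separate cases, and no excess over chance is read from them. Library 4 held 2120 (2120.13) normalized counts of H2-Aa, 10297 of H2-Ab1, 3356 of H2-Eb1, 25745.5 of Cd74 and 883 of H2-DMb1. The highest of the other 3 libraries held 634, 4081.5, 1100.0, 9622 and 352 in the same order.

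Single-cell differences with opposite signs in the 2 sets were as follows, each as the log2 CPM difference of KO from WT, and the difference between the sets was not tested. H2-Eb1 in Epcam-positive cells differed by 1.70 in set 1 and -0.69 in set 2. H2-Eb1 in Ptprc-positive cells differed by 2.36 and -0.38, H2-DMa by -0.11 and 0.056, H2-DMb1 by -0.82 and 0.49, and Ciita by -1.41 and 0.75. Set 1 gave 12 and 10 Ptprc-positive cells.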

How the results depend on the processing

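Counts of genes called moved more than the members' differences did. Between germ-free and conventionalized libraries 453 genes were called, 1672 with all 4 groups in 1 fit, and 1 to 684 when leaving out each library in turn (1 without germ-free library 1), with 0 members throughout. Between high fat diet and chow 135 genes were called, 317 with no filter on low values, 33 with all 4 groups, 12 without both libraries numbered 3 (chosen after seeing the data), and 0 to 2590 when leaving out 1 library (2590 without chow library 2, 69 without chow library 3), with 0 to 7 members. With the replicate number as a block 271 genes were called there, 165 between conventionalized and chow, with 1 member (H2-Aa, limma adjusted p = 0.0274), although numbers did not pair the libraries, and the cause of these changes was not tested. Between conventionalized and chow 17 genes were called, 39 with no filter, 26 with all 4 groups, and 0 to 6 when leaving out 1 library, with 0 members. Median-of-ratios scaling, quantile normalization and pseudocounts of 0.5 and 5 kept every member's direction, although quantile normalization moved the median of all genes between germ-free and conventionalized from 0.11 to -0.02.

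In Epcam-positive cells 0 genes were called, 9 with DESeq2, 1 with no expression filter, 2 thinned with the set as a block, and 0 to 4 when leaving out 1 library. In Ptprc-positive cells 0 genes were called, 6 with no expression filter, 22 with the set as a replicate block, and 0 to 15 when leaving out 1 library, with 0 to 1 members (H2-Eb1, 3.24, edgeR adjusted p = 0.0328, without KO set 2). Leaving out a library leaves 1 in its arm, which is assumed to vary like the other genotype.

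Signs changed as follows. Ciita between germ-free and conventionalized was -0.04, -0.23 and -0.09 without germ-free library 3, germ-free library 4 and conventionalized library 1, in a range from -0.23 to 0.48 when leaving out 1 library. H2-Eb1 in Epcam-positive cells was -0.96 without KO set 1, in a range up to 1.96. In Ptprc-positive cells, without WT set 1, H2-Aa was 0.68, H2-Ab1 0.55, Cd74 0.99, H2-DMa 0.68 and H2-DMb1 0.40; without KO set 1, H2-Eb1 was -1.63 and H2-DMb1 0.12; without KO set 2, H2-DMa was 0.38. The other ends of these ranges were -2.39 for H2-Aa, -1.39 for H2-Ab1, 3.57 for H2-Eb1, -2.08 for Cd74 and -0.63 for H2-DMa. There H2-DMa and H2-DMb1 were 0.037 and 0.26 with the replicate block and 0.027 and 0.46 thinned, H2-DMb1 was 0.019 without doublet removal, and with T cells alone H2-Ab1 was 0.75, Cd74 0.28 and H2-DMa 0.054. The share of Epcam-positive cells with a Cd74 UMI moved with depth, to 87.3% in WT and 72.3% in KO of set 1 and 82.8% and 63.1% in set 2 when thinned to 4000 UMIs. Depth limits Ciita and the Ptprc-positive cells of set 2, and the number of cells limits those of set 1.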

Other observations

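The balance of the I-A chains differed between groups of bulk libraries. H2-Aa stood at 30.5 to 38.1 normalized counts per 100 of H2-Ab1 in the chow libraries, and at 11.7 to 16.2 in high fat diet, 13.6 to 20.6 in conventionalized and 15.4 to 19.5 in germ-free libraries. The chow range, which includes library 3, overlapped none of the others. H2-Eb1 per 100 of H2-Ab1 did not separate the groups and ran from 13.7 to 41.7 over the 16 libraries. Ciita per 100 of H2-Ab1 was 2.54 to 3.56 in chow and 6.47 to 11.5 on the high fat diet, with 1.95 to 4.5 in conventionalized and 2.50 to 30.05 in germ-free libraries.

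In Ptprc-positive single cells H2-Aa had 173 and 126 UMIs per 100 H2-Ab1 UMIs in WT and KO of set 1 and 101 and 79.5 in set 2. These ratios were chosen after their values were seen and no test was made of them.

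Genes of interferon signalling and class I that were picked after their values were seen had lower levels in KO in both sets of Epcam-positive cells, with 0 called. Psmb8, a subunit of the immunoproteasome, stood at 341 and 87.3 CPM in WT and KO of set 1 and at 533 and 346 in set 2, and Igtp, an interferon-induced GTPase, at 22.9 and 4.37 and at 16.8 and 9.24. Tap1 stood at 41.4 and 12.8 in set 1 and at 66.0 and 40.4 in set 2.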
